A study of Homo sapiens with 12 samples.

Results

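The mitochondrial carriers of the SLC25 family were described across 6 sorted populations of gastric cancer cells, the CD133+ and the CD133- cells of 3 lines. The members are the rows of the expression table whose gene symbol is SLC25A followed by a number. The rule used no measured value, and it gave 43 genes of the 34595 with a value, SLC25A1 to SLC25A46 without the numbers 7, 8 and 9, which belong to the uncoupling proteins UCP1 to UCP3. Expression was measured on 12 arrays (Illumina HT-12 v3), 2 for each population. KATO-III, SNU-216 and SNU-601 are established gastric cancer cell lines, and each was grown without a drug or a genetic change in RPMI1640 with calf serum. They were stained with the AC133 antibody against CD133, a membrane glycoprotein encoded by PROM1 and used as a stem cell marker in this cancer, and the most and the least fluorescent cells were sorted as CD133+ and CD133-. The 2 fractions of a line are thus the tails of 1 culture's staining, and whether the 2 arrays of a population came from separate cultures or sorts is not given in the sources used here, so that p-values measure only the spread between arrays, which may be technical. The labels of the arrays name SNU-216, whereas the series' own description names SNU201 in its place.

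SLC25 proteins are built from tandem repeats of a pair of membrane helices and sit, with few exceptions, in the inner mitochondrial membrane. They exchange the substrates and products of oxidative metabolism between the matrix and the cytosol: ADP for ATP, phosphate, citrate, aspartate for glutamate, acylcarnitines, iron and cofactors. They are encoded in the nucleus, made in the cytosol and inserted through the TOM and TIM22 complexes. Some substrates have several carriers encoded by related genes, and the abundance of carriers differs between tissues.

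The deposited values are linear intensities, from which a background had been taken. Values under a floor of 32.7 were set to it and log2 was taken, and the 38 of 43 carriers that exceeded it on 2 or more arrays were tested among 20147 genes. The other 5, SLC25A2 (a basic amino acid carrier), SLC25A21 (oxodicarboxylate), SLC25A32 (folate and FAD), SLC25A33 (pyrimidine nucleotides) and SLC25A41 (ATP-Mg and phosphate), were under it on all 12 arrays. Such a row may not show that a transcript was absent, since VDAC2, a pore of the outer membrane that most cells use, was also under the floor on all 12 arrays. Of the tested carriers, 30 exceeded the floor on all 12 arrays and 8 on some of them, namely SLC25A4, SLC25A18, SLC25A27, SLC25A30, SLC25A31, SLC25A34, SLC25A35 and SLC25A45. PROM1 was higher in CD133+ cells in every line, by 1.10 ± 0.059 (SE, n = 2 against 2 arrays) on the log2 scale in KATO-III, 2.02 ± 0.059 in SNU-216 and 1.86 ± 0.059 in SNU-601. All 8 rows of epithelial markers, with EPCAM also listed as TACSTD1, exceeded the floor on every array. Of 13 markers of other cell types, PTPRC, CD3E, PECAM1, VWF, COL3A1 and DCN were under it on every array. The summed intensity of all 13 was 1480 to 1502 in KATO-III CD133+ against 2602 to 2621 in CD133- cells, 901 to 906 against 490.4 to 552 in SNU-216, and 1612 to 1761 against 2004 to 2027 in SNU-601, carried mainly by CD14, CD68, LUM and ACTA2. The part of these markers in the results was not tested, and fewer cells of a type cannot be told apart from less RNA per cell in such bulk samples.

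Between the CD133 fractions the family moved in both directions and differently in each line, and no carrier was called in the same direction in all 3. Few genes were: of all 20147 tested, 127 were called higher and 86 lower in all 3 lines, so that 0 of 38 carriers is near that share. In KATO-III, 10 carriers were higher and 11 lower in CD133+ cells, led by the aspartate/glutamate carrier SLC25A13 (higher, 2.76-fold) and by the glutamate carrier SLC25A22 (lower, 2.97-fold) and SLC25A34 (lower, at least 2.91-fold, with CD133+ arrays under the floor). In SNU-216, 3 were higher and 11 lower, led by the acylcarnitine carrier SLC25A20 (higher, 1.79-fold) and the iron carrier SLC25A37 (lower, 1.69-fold). In SNU-601, 7 were higher and 2 lower, led by the ATP-Mg/phosphate carrier SLC25A24 (higher, 1.5-fold) and SLC25A20 (lower, 1.37-fold). A carrier is called different here where limma's moderated test gave an adjusted p (Benjamini-Hochberg over all 20147 genes) under 0.05.

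These counts are to be read against the array as a whole, where many genes passed. In KATO-III 21 of 38 carriers were called against 39.3% of all tested genes, with 18.7% higher and 20.6% lower. In SNU-216 it was 14 of 38 against 28.6%, with 14.6% higher and 14% lower, and 9 without CD133+ replicate 1. In SNU-601 it was 9 of 38 against 16.4%, with 8.59% higher and 7.78% lower. Carriers tended to lie well above the floor, and among the 11674 genes above it on all 12 arrays the called shares were 51.4%, 40.1% and 22.4% in KATO-III, SNU-216 and SNU-601, against 18, 13 and 9 of the 30 such carriers. The size of the differences was also like that of other genes: the median absolute log2 difference was 0.31 over the tested carriers and 0.29 over all tested genes in KATO-III, 0.19 and 0.23 in SNU-216, and 0.13 and 0.18 in SNU-601. The median signed difference of all tested genes was 0 in each line.

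**Figure D1:**
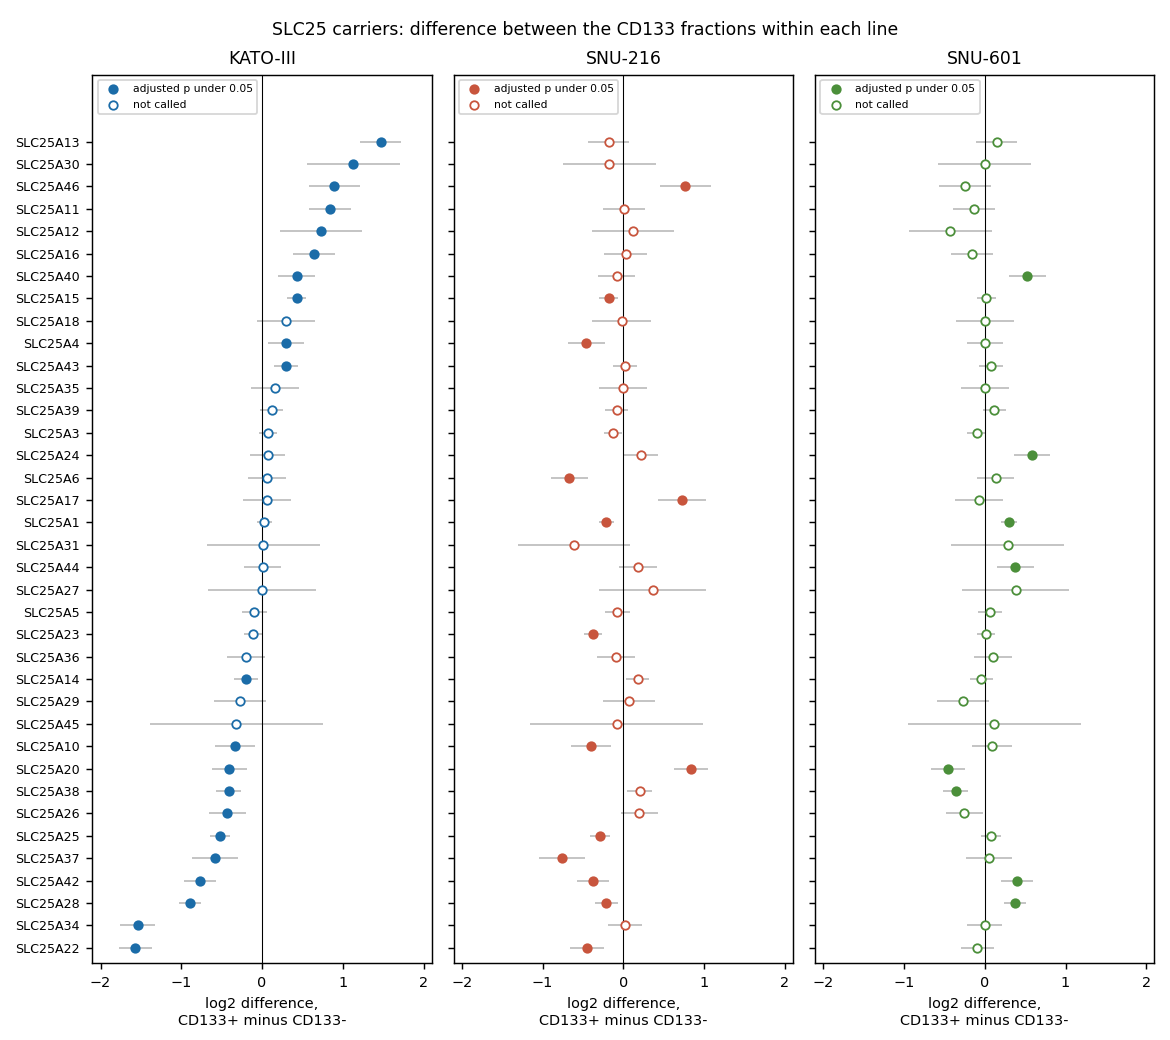
Log2 difference of intensity between the CD133+ and CD133- cells (horizontal axis) of the tested carriers described here (rows, in the order of KATO-III) in KATO-III, SNU-216 and SNU-601. Filled points have an adjusted p under 0.05 (limma), open points do not, and the bars are 95% confidence intervals; the order seen in KATO-III is not kept in the other lines.

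Across lines, 28 of the 38 carriers (73.7%) were called in at least 1 line, against 56.2% of all tested genes. Of these 28, 15 were called in 1 line, 10 in 2 and 3 in all 3 lines. Of all 20147 tested genes, 6662 were called in 1 line, 3656 in 2 and 1001 in all 3. Counts over lines were not made among genes above the floor on every array, which were called more often within each line. The fraction effect itself differed between the lines for 26 of 38 carriers by the moderated F-test of line by fraction, against 44.4% of all tested genes and 23 of the 30 carriers against 58.5% among genes above the floor on every array. Called in opposite directions in 2 lines were 6 carriers (15.8%, against 10.9% of all tested genes), the citrate carrier SLC25A1, the ADP/ATP carrier SLC25A4, the ornithine carrier SLC25A15, SLC25A20, the mitoferrin SLC25A28 and the CoA carrier SLC25A42.

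The ADP/ATP carriers SLC25A4, SLC25A5, SLC25A6 and SLC25A31 export the ATP made in the matrix in exchange for ADP, and SLC25A4 is known as the heart and muscle form and SLC25A31 as the germ cell form. They showed the widest contrast between lines in the family, since SLC25A4 was bright in SNU-216 and at or near the floor elsewhere. The windows of 250 bases before the start of the 3 somatic genes are shown because the lines differed in SLC25A4 and SLC25A6 and hardly in SLC25A5, on RefSeq's GRCh38.p14, 5′ to 3′ on the strand of the gene. Capitals mark matches on either strand to the motifs searched, which were the TATA box (TATAAA), the box named by its letters CCAAT, the GC box (GGGCGG), the E-box (CACGTG), the core of ETS sites (CCGGAAG) and that of NRF1 sites (GCGCATGC).
SLC25A4 (chr4:185143016-185143265, plus strand): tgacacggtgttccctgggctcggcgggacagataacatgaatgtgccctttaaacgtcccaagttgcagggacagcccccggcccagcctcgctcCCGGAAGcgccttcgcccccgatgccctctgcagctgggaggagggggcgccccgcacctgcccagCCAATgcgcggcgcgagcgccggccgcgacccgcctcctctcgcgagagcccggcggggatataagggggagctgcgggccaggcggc
SLC25A5 (chrX:119468194-119468443, plus strand): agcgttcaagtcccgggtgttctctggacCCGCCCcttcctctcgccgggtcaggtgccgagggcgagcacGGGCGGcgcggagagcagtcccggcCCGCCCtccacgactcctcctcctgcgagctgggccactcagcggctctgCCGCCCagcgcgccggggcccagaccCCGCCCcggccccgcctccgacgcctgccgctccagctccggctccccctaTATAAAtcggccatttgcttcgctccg
SLC25A6 (chrX:1392114-1392363, minus strand): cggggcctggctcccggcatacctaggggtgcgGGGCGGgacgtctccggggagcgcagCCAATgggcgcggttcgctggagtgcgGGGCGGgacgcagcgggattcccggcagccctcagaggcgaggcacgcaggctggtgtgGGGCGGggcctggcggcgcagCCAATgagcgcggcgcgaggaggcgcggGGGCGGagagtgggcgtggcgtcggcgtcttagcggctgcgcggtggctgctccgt
The SLC25A4 window holds 1 CCAAT and 1 ETS match and no GC box, the SLC25A5 window 5 GC boxes and 1 TATAAA, and the SLC25A6 window 4 GC boxes and 2 CCAAT matches. All 3 are rich in G and C, at 71.6%, 73.6% and 76.8%, against a median of 58% over all 35116 windows of this length, and none of the marked matches overlap. Windows were matched by symbol for 35 of the 43 carriers. Of these 35, 24 hold a GC box (42.6% of all windows do), 17 CCAAT (32%), 7 the ETS letters (8.52%), 6 the E-box (6.34%) and 3 TATAAA (10.7%), and none holds the NRF1 letters (2.63%). The median share of G and C was 66% over the carrier windows, against 58% over all windows, and the motif shares were not adjusted for it. A match is a description of these letters, not a measured binding site.

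SLC25A4 had intensities of 1664 and 1788 in SNU-216 CD133+ and 2373 and 2369 in SNU-216 CD133- cells. In KATO-III the values were 39.7 and 40.5 in CD133+ and 11.4 and 30.6 in CD133- cells, and in SNU-601 they were 33.0 and 12.8 and -0.89 and 5.59. The 4 arrays of SNU-216 thus stood apart from the other 8, of which 5 were under the floor. Arrays set to the floor have no spread, so that the p-values of SLC25A4 understate the spread between arrays. Over both fractions SNU-216 was at least 55.9-fold above KATO-III (adjusted p = 5.15e-12, limma) and at least 61.7-fold above SNU-601 (adjusted p = 4.88e-12). Between the fractions of SNU-216, SLC25A4 was lower in CD133+ cells (log2 difference -0.46 ± 0.099, SE, adjusted p = 0.00782). That call was lost without CD133+ replicate 1 (adjusted p = 0.0579) and with a floor of 16 (adjusted p = 0.458), there with the log2 difference still at -0.46. In KATO-III it was called higher in CD133+ cells, by at least 1.23-fold (adjusted p = 0.0428), but the CD133- arrays were under the floor. This call was lost at floors of 16 and 100 (adjusted p = 0.0974 and 1) and without any 1 of the 8 arrays of KATO-III and SNU-216, with adjusted p up to 0.116.

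SLC25A5 is the widely expressed form, and its level hardly moved. Its 12 intensities lay between 13679 and 17099, with log2 differences between the fractions of -0.10 ± 0.067 (SE), -0.08 ± 0.067 and 0.07 ± 0.067 in KATO-III, SNU-216 and SNU-601 (adjusted p = 0.312, 0.495 and 0.607, 95% intervals -0.25 to 0.06, -0.23 to 0.08 and -0.08 to 0.22). Between lines it was lower in SNU-216 than in SNU-601 (log2 difference -0.15 ± 0.047, adjusted p = 0.0224). That small difference was lost without the filter on dim genes, without limma's trend, when the arrays were centred on their medians (adjusted p = 0.0959) and without 1 of 4 single arrays (adjusted p = 0.07 to 0.0748), those of SNU-216 CD133+ replicate 1, CD133- replicate 2, SNU-601 CD133+ replicate 2 and CD133- replicate 2.

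SLC25A6 went the other way from SLC25A4 between lines. Its intensities were 3437 and 4161 in SNU-216 CD133+ and 6125 and 5891 in SNU-216 CD133- cells, against 9969 to 12024 in KATO-III and 9918 to 11332 in SNU-601. All 4 arrays of SNU-216 lay below all others. KATO-III was 2.35-fold above SNU-216 (adjusted p = 3.09e-07) and SNU-601 2.24-fold above it (adjusted p = 4.48e-07). Within SNU-216, SLC25A6 was 1.59-fold lower in CD133+ cells (log2 difference -0.67 ± 0.10, adjusted p = 0.00128), whereas the fractions of KATO-III and SNU-601 differed by 0.06 ± 0.10 and 0.13 ± 0.10 (adjusted p = 0.73 and 0.457). The fraction effect differed between the lines (adjusted p = 0.00298). SLC25A31 stayed between 11.0 and 81.2, near the floor, and passed no test between fractions. Its lower level in KATO-III than in SNU-216 (log2 difference -0.65 ± 0.22, adjusted p = 0.0257) was lost with a floor of 16 (adjusted p = 0.0576) and without either SNU-216 CD133+ array, SNU-216 CD133- replicate 1, KATO-III CD133+ replicate 1 or KATO-III CD133- replicate 2 (adjusted p = 0.0591 to 0.0916). SLC25A4, SLC25A5 and SLC25A6 are close in sequence, and the rows carry no probe sequences, so that signal shared between them or with processed copies was not tested.

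**Figure D2:**
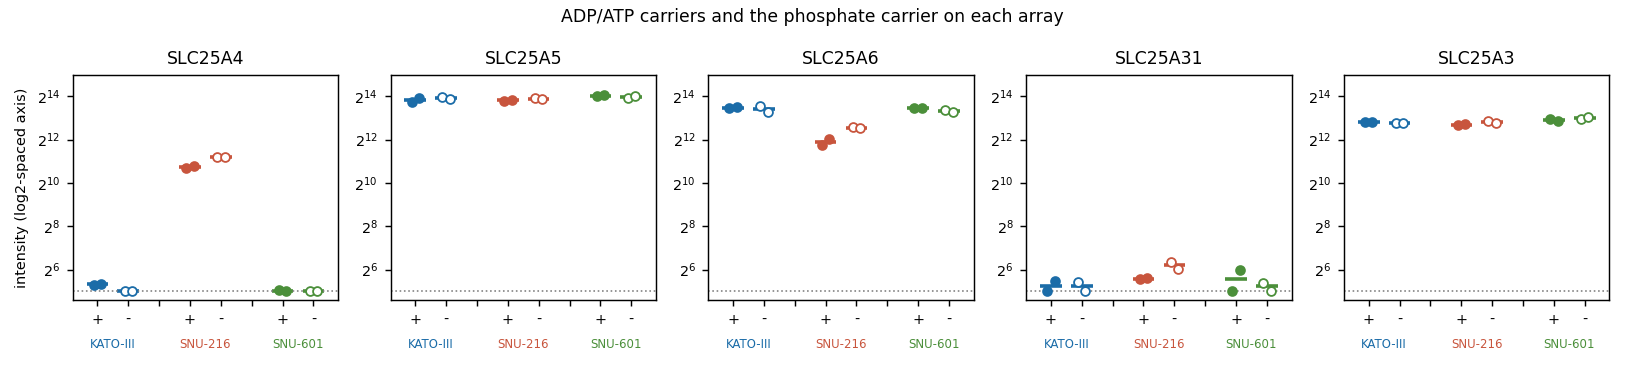
Intensity (vertical axis, spaced by log2, values under the floor drawn at it, dotted line) of the 4 ADP/ATP carriers and the phosphate carrier on each of the 12 arrays, by line and CD133 fraction (filled points CD133+, open points CD133-, bars the mean of 2 arrays). SLC25A4 is bright in SNU-216 and at or near the floor in the other lines, SLC25A6 is lowest in SNU-216, and SLC25A5 and SLC25A3 stay nearly level.

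SLC25A3 carries the phosphate that ATP synthase joins to ADP. It had between 6493 and 8524 on the 12 arrays and no called difference between fractions, with 0.07 ± 0.051, -0.13 ± 0.051 and -0.10 ± 0.051 on the log2 scale in KATO-III, SNU-216 and SNU-601 (adjusted p = 0.309, 0.0993 and 0.237). SNU-601 was slightly above KATO-III (1.11-fold, adjusted p = 0.0045) and SNU-216 (1.15-fold, adjusted p = 0.000901).

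The carriers of ATP-Mg, phosphate and CoA load the matrix with adenine nucleotides and CoA, and SLC25A17 serves peroxisomes in place of mitochondria. Of 7 listed, 6 were tested. The fraction effect differed between lines for all 6, against 44.4% of all tested genes and 58.5% of those above the floor on every array. That of SLC25A17 was lost without SNU-216 CD133+ replicate 2 and that of SLC25A24 without any 1 of several arrays. In KATO-III 1 was higher and 2 lower, in SNU-216 1 higher and 3 lower, and in SNU-601 2 were higher and none lower, with median log2 differences of -0.03, -0.13 and 0.05. Counts of called carriers by group, here and below, stand against 39.3%, 28.6% and 16.4% of all tested genes called in KATO-III, SNU-216 and SNU-601. SLC25A42, a carrier of CoA, had 159.9 and 167 in KATO-III CD133+ against 264 and 292 in KATO-III CD133- cells, and 698 and 797 against 996 and 935 in SNU-216. In SNU-601 the CD133+ arrays, 461 and 434, lay above the CD133- arrays, 342 and 338. The fractions overlapped in none of the lines, and the log2 differences were -0.76 ± 0.087 (adjusted p = 0.000153), -0.37 ± 0.087 (adjusted p = 0.0118) and 0.39 ± 0.087 (adjusted p = 0.0159). The call in SNU-216 was lost without CD133+ replicate 1 (adjusted p = 0.0843) or CD133- replicate 1 (adjusted p = 0.0716), and that in SNU-601 without CD133+ replicate 1 (adjusted p = 0.0859) or either CD133- array (adjusted p = 0.0619 and 0.0698).

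The 3 calcium-regulated ATP-Mg/phosphate carriers that were tested did not move as a set. SLC25A23 had 5033 and 5214 in SNU-216 CD133+ and 6646 and 6687 in CD133- cells, 1.3-fold lower in CD133+ cells (log2 difference -0.38 ± 0.049, adjusted p = 0.000553), and the KATO-III and SNU-601 fractions differed by -0.11 ± 0.049 and 0.01 ± 0.049 (adjusted p = 0.113 and 0.975). SLC25A24 was higher in SNU-601 CD133+ cells, 711 and 715 against 456 and 495 (1.5-fold, adjusted p = 0.00427), with 0.07 and 0.21 on the log2 scale in KATO-III and SNU-216 (adjusted p = 0.663 and 0.142). SLC25A25 was lower in CD133+ cells of KATO-III (1.43-fold, adjusted p = 9.63e-05) and of SNU-216 (1.22-fold, adjusted p = 0.00387). SLC25A17 was called only in SNU-216, where CD133+ cells had 818 and 929 and CD133- cells 459.8 and 609 (1.65-fold higher, adjusted p = 0.00327), and its fraction effect differed between lines (adjusted p = 0.0138). SLC25A16 was called only in KATO-III (1.56-fold higher, adjusted p = 0.00215, line by fraction adjusted p = 0.00832).

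The UCP-like carriers SLC25A27, SLC25A14 and SLC25A30 are relatives of the uncoupling proteins. In KATO-III 1 was higher and 1 lower, and none was called in SNU-216 or SNU-601. SLC25A30 had 62.2 and 82.3 in KATO-III CD133+ and 27.3 and 32.7 in CD133- cells, of which the first CD133- array was under the floor, and the difference was 1.13 ± 0.25 on the log2 scale (adjusted p = 0.00673). It was lost without CD133+ replicate 2 (adjusted p = 0.0527), and no array of SNU-601 was above the floor. SLC25A14 was 1.15-fold lower in KATO-III CD133+ cells (adjusted p = 0.0336), a call that did not hold without any 1 of the 4 KATO-III arrays, nor with arrays centred on their medians or normalized again, without the filter on dim genes or without limma's trend. UCP2, an uncoupling protein of the same family under its own symbol, had 1263 and 1336 in SNU-216 CD133+ and 2308 and 2191 in CD133- cells (1.73-fold lower, adjusted p = 1.43e-05), and MCART1, now SLC25A51 and a carrier of NAD+, had 1118 and 1144 against 2115 and 2089 in KATO-III (1.86-fold lower, adjusted p = 0.00355). These were the 2 called within lines of 5 tested carriers under other symbols.

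Of 9 listed carriers of amino acids, 8 were tested: 3 were higher and 2 lower in KATO-III CD133+ cells, 2 lower in SNU-216, and 1 higher and 1 lower in SNU-601, with median log2 differences of 0.15, 0.02 and -0.05. SLC25A13 (citrin), which exchanges mitochondrial aspartate for glutamate in the malate-aspartate shuttle, had 2799 and 2504 in KATO-III CD133+ cells and 1045 and 878 in CD133- cells. In SNU-216 it had 1245 and 1416 against 1539 and 1476, and in SNU-601 1051 and 987 against 996 and 847. The KATO-III CD133+ arrays were the highest of all 12. The log2 difference was 1.47 ± 0.11 in KATO-III (adjusted p = 1.57e-05), against -0.18 ± 0.11 and 0.15 ± 0.11 in SNU-216 and SNU-601 (adjusted p = 0.283 and 0.454), and the effect differed between lines (adjusted p = 0.000127).

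SLC25A22, which brings glutamate into the matrix, was lower in CD133+ cells in KATO-III, 398 and 324 against 1108 and 1025. The direction was the same in SNU-216, 1579 and 1639 against 2112 and 2295. In SNU-601 the values were 1295 and 1272 against 1385 and 1347. In each line both CD133+ arrays lay below both CD133- arrays, with log2 differences of -1.57 ± 0.091 (adjusted p = 3.79e-06), -0.45 ± 0.091 (adjusted p = 0.00553) and -0.09 ± 0.091 (adjusted p = 0.615), and the size differed between lines (adjusted p = 8.48e-05). SLC25A12 (aralar), the other aspartate/glutamate carrier, was called higher in KATO-III CD133+ cells, 693 and 758 against 386 and 495 (log2 difference 0.73 ± 0.22, adjusted p = 0.0293). That call was lost without either CD133+ array or CD133- replicate 1 (adjusted p = 0.0792, 0.13 and 0.175) and without the filter on dim genes (adjusted p = 0.103).

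SLC25A15, the ornithine carrier of the urea cycle, was higher in KATO-III CD133+ cells, 1608 and 1572 against 1185 and 1181 (1.34-fold, adjusted p = 0.000209). It was lower in SNU-216 CD133+ cells, 1021 and 985 against 1112 and 1159.7 (1.13-fold, adjusted p = 0.0286). The second of these calls was lost without either CD133+ array or CD133- replicate 2 (adjusted p = 0.0573, 0.136 and 0.133), with an offset of 100 in place of the floor and without limma's trend. SLC25A38, a glycine carrier of haem synthesis, was lower in CD133+ cells of KATO-III (1.33-fold, adjusted p = 0.00116) and SNU-601 (1.28-fold, adjusted p = 0.0077), with 0.20 on the log2 scale in SNU-216 (adjusted p = 0.0539). SLC25A44, a carrier of branched-chain amino acids, was called only in SNU-601 (1.3-fold higher, adjusted p = 0.0354), and that was lost without the filter on dim genes, without limma's trend, and without any single array other than the KATO-III CD133+ arrays and SNU-601 CD133- replicate 1. SLC25A18, a second glutamate carrier, and SLC25A29, a carrier of basic amino acids, were called in no line.

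**Figure D3:**
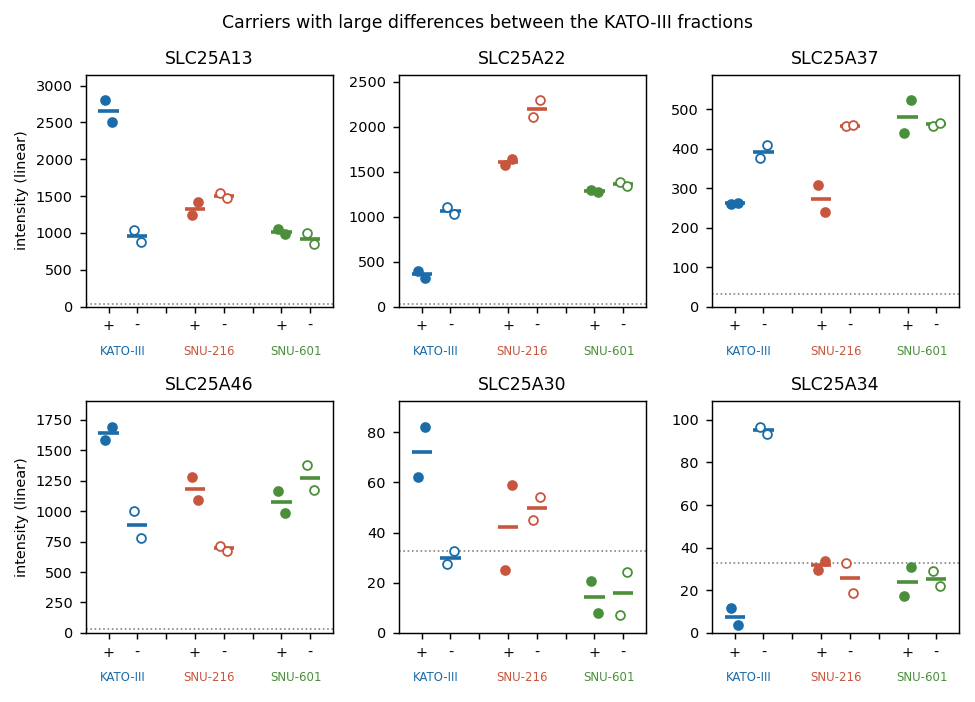
Intensity (linear vertical axis, dotted line the floor of 32.7) on each of the 12 arrays for 6 carriers, by line and CD133 fraction (filled points CD133+, open points CD133-, bars the mean of 2 arrays). SLC25A13, SLC25A46 and SLC25A30 are higher and SLC25A22, SLC25A37 and SLC25A34 lower in KATO-III CD133+ cells, while SNU-601 shows no called difference for any of them.

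Among the carriers of di- and tricarboxylates and acylcarnitines, 4 of 5 were tested. The fraction effect differed between lines for all 4, against 44.4% of all tested genes and 58.5% of those above the floor on every array. That of SLC25A10 was lost without any single array other than the SNU-216 CD133+ arrays. In KATO-III 1 was higher and 2 lower in CD133+ cells, in SNU-216 1 higher and 2 lower, and in SNU-601 1 higher and 1 lower, with median log2 differences of -0.16, -0.10 and -0.02. SLC25A20, which imports acylcarnitines for fatty acid oxidation, had 295 and 256 in KATO-III CD133+ and 351 and 379 in CD133- cells. In SNU-216 the order was turned, 376 and 349 against 199 and 206. In SNU-601 it was 203 and 210.5 against 284 and 283. The fractions overlapped in no line, and the log2 differences were -0.41 ± 0.094 (adjusted p = 0.00794), 0.84 ± 0.094 (adjusted p = 0.000262) and -0.45 ± 0.094 (adjusted p = 0.012), with a difference between lines of adjusted p = 0.000133. The call in KATO-III was lost without CD133+ replicate 2 or CD133- replicate 2 (adjusted p = 0.055 and 0.0538), and that in SNU-601 without CD133+ replicate 1 or either CD133- array (adjusted p = 0.0591, 0.0537 and 0.0517). The difference in SNU-216 was called under every alternative tried.

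SLC25A1, which exports the citrate that feeds cytosolic acetyl-CoA, differed little in size but with a small spread. It had 2774 and 2796 in SNU-216 CD133+ and 3180.0 and 3275 in CD133- cells (1.16-fold lower, adjusted p = 0.00464). In SNU-601 it had 2269 and 2272 against 1796 and 1893 (1.23-fold higher, adjusted p = 0.00191). The KATO-III fractions overlapped, 2912 and 2926 against 2814 and 2926 (adjusted p = 0.729). SLC25A11, the 2-oxoglutarate/malate carrier, was 1.78-fold higher in KATO-III CD133+ cells (adjusted p = 0.000436), with 0.01 and -0.14 on the log2 scale in SNU-216 and SNU-601 (adjusted p = 1 and 0.515). SLC25A10, the dicarboxylate carrier, was lower in CD133+ cells of KATO-III (1.26-fold, adjusted p = 0.035) and SNU-216 (1.32-fold, adjusted p = 0.0228). The first of these calls did not hold without any 1 of the 4 KATO-III arrays, without either SNU-216 CD133- array, with arrays centred on their medians or without limma's trend. The second was lost without SNU-216 CD133+ replicate 1 or either CD133- array, and both without the filter on dim genes.

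Among the carriers of nucleotides and cofactors, SLC25A26, the S-adenosylmethionine carrier, was 1.35-fold lower in KATO-III CD133+ cells (adjusted p = 0.00837), which was lost without CD133- replicate 2. SLC25A36, a pyrimidine nucleotide carrier, was called in no line.

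The iron and glutathione carriers were 4, all tested. In KATO-III 1 was higher and 2 lower in CD133+ cells, in SNU-216 2 were lower, and in SNU-601 2 were higher, with median log2 differences of -0.23, -0.15 and 0.25. SLC25A28 (mitoferrin 2), which brings iron into the matrix of most cells, had 1973 and 2124 in KATO-III CD133+ and 3678 and 3918 in CD133- cells. In SNU-216 it had 3929.8 and 3909 against 4288 and 4789, and in SNU-601 4263 and 4345 against 3296 and 3336. Each line's fractions were apart, with CD133+ cells lower in KATO-III and SNU-216 and higher in SNU-601. The log2 differences were -0.89 ± 0.061 (adjusted p = 9.15e-06), -0.21 ± 0.061 (adjusted p = 0.0303) and 0.38 ± 0.061 (adjusted p = 0.00395), and the effect differed between lines (adjusted p = 3.09e-05). The small difference in SNU-216 was lost without either CD133+ array or CD133- replicate 2 (adjusted p = 0.1, 0.109 and 0.181), without the filter on dim genes (adjusted p = 0.0722) and without limma's trend (adjusted p = 0.0756).

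SLC25A37 (mitoferrin 1), known for iron import in erythroid cells, was lower in CD133+ cells of KATO-III, 260.3 and 263 against 376 and 409, and of SNU-216, 308 and 239 against 458 and 459. The folds were 1.5 (adjusted p = 0.0056) and 1.69 (adjusted p = 0.00209), and both calls held under every alternative tried. In SNU-601 the fractions overlapped, 439 and 523 against 459 and 466 (adjusted p = 0.918). SLC25A40, a carrier of glutathione, was higher in CD133+ cells of KATO-III, 873 and 844 against 669.8 and 609, and of SNU-601, 613 and 625 against 386 and 477. The folds were 1.34 (adjusted p = 0.00968) and 1.44 (adjusted p = 0.00904), and the SNU-216 fractions overlapped (adjusted p = 0.647). The KATO-III call was lost without CD133+ replicate 1 (adjusted p = 0.0561) or CD133- replicate 2 (adjusted p = 0.0689). SLC25A39, its close relative and also a carrier of glutathione, was called in no line, with 0.12 ± 0.062, -0.08 ± 0.062 and 0.12 ± 0.062 on the log2 scale (adjusted p = 0.181, 0.396 and 0.259).

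**Figure D4:**
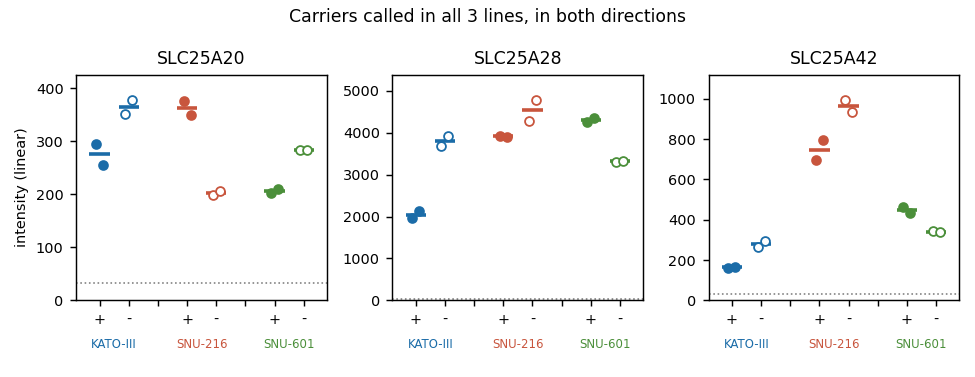
Intensity (linear vertical axis, dotted line the floor of 32.7) on each of the 12 arrays for the 3 carriers called in every line, by line and CD133 fraction (filled points CD133+, open points CD133-, bars the mean of 2 arrays). In KATO-III and SNU-216 the CD133+ cells have less SLC25A28 and SLC25A42 signal than CD133- cells and in SNU-601 they have more, and SLC25A20 is higher in CD133+ cells in SNU-216 and lower in the other lines.

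Of the 5 carriers with another or no assigned substrate, all tested, 2 were higher and 1 lower in KATO-III CD133+ cells, 1 was higher in SNU-216, and none was called in SNU-601. SLC25A46, a protein of the outer membrane that acts in mitochondrial dynamics, had 1581 and 1693 in KATO-III CD133+ and 998 and 779 in CD133- cells. In SNU-216 it had 1279 and 1089 against 717 and 671. In SNU-601 the order was turned, 1168 and 986 against 1375 and 1172, without a call (adjusted p = 0.309). The folds in KATO-III and SNU-216 were 1.86 (adjusted p = 0.000961) and 1.7 (adjusted p = 0.00334), called under every alternative tried, and the effect differed between lines (adjusted p = 0.0027). SLC25A34 was above the floor in KATO-III CD133- cells, 96.8 and 93.4, and under it in CD133+ cells, 11.6 and 3.51, so that it was at least 2.91-fold lower in CD133+ cells (adjusted p = 5.11e-06), and its SNU-216 and SNU-601 arrays lay at 33.7 or below. It exceeded the floor on 4 arrays only. Arrays set to the floor have no spread, so that this p-value understates the spread between arrays. SLC25A43 had 1726 and 1666 in KATO-III CD133+ and 1377 and 1395 in CD133- cells (1.22-fold higher, adjusted p = 0.00706). SLC25A35 and SLC25A45 were called in no line.

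The study looked for genes that change with CD133 in common over the lines. With the line as a block, none of the 38 carriers passed (limma), against 4.73% of all tested genes, and 10 carriers had an unadjusted p under 0.05. That fit takes the 2 arrays of a population as independent: it called 953 of 20147 genes, which went to 229 to 897 without single arrays, to 0 when the arrays of a population were averaged first, and to 1 when population entered as a random block. SLC25A22 came nearest, with an over-lines log2 difference of -0.70 ± 0.20 (SE, adjusted p = 0.0636), lower in CD133+ cells in 3 of 3 lines, and it was called with an offset of 100 in place of the floor and among genes above the floor on all 12 arrays. It was followed by SLC25A37 at -0.43 ± 0.14 (adjusted p = 0.0894), which was called without SNU-601 CD133+ replicate 2. SLC25A13 and SLC25A46 stood at 0.48 ± 0.22 and 0.47 ± 0.17 (adjusted p = 0.213 and 0.13), with an SE that holds the differences between the lines. The measure named in the methods is a signal-to-noise ratio with 1 and -1 as thresholds, for which no formula is given. Here the mean over the 6 CD133- arrays was taken from that over the 6 CD133+ arrays, and both SDs together were the divisor. This may differ from the study's own computation. On the linear intensities 0.96% of the 34595 genes passed, 193 above 1 and 139 under -1, and a single carrier was among them, SLC25A33 at -1.16 (2 carriers without SNU-601 CD133+ replicate 2). All 12 of its intensities lay between -29.4 and 4.52, under the floor, so that this ratio compares values around the background. For SLC25A37, SLC25A46 and SLC25A22 the ratio was -0.65, 0.62 and -0.41.

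Between lines, with both fractions weighted equally, more carriers were called than between fractions. The same held for all tested genes, of which 39.3%, 28.6% and 16.4% were called between the fractions of KATO-III, SNU-216 and SNU-601. A contrast between lines averages more arrays and has a smaller SE. A rise in counts thus need not mean larger differences. The median absolute log2 difference was 0.38 to 0.44 between lines and 0.13 to 0.31 between fractions over tested carriers. Over all tested genes it was 0.37 to 0.44 and 0.18 to 0.29. KATO-III and SNU-216 differed in 23 carriers (12 higher and 11 lower in KATO-III), against 62% of all tested genes. KATO-III and SNU-601 differed in 26 (16 higher and 10 lower in KATO-III), against 58.6%, and SNU-216 and SNU-601 in 26 (14 higher and 12 lower in SNU-216), against 56.5%. Among genes above the floor on all 12 arrays the shares were 72.7%, 71.3% and 70.7%, and the counts 18, 23 and 24 of 30 carriers. The comparisons share lines, so that each pair is given by its own values.

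After SLC25A4, the carriers with the largest differences were these. SLC25A42 was lowest in KATO-III, where its 4 arrays spanned 159.9 to 292, against 698 to 996 in SNU-216 and 338 to 461 in SNU-601. No line overlapped another, and KATO-III was 3.98-fold under SNU-216 (adjusted p = 3.28e-09) and 1.83-fold under SNU-601 (adjusted p = 1.64e-06). SLC25A35 was above the floor in KATO-III alone, at 118 to 152 on its 4 arrays, and under it on the 8 arrays of the other lines, at least 3.92-fold higher (adjusted p = 6.48e-08 against SNU-216 and 9.6e-08 against SNU-601). That bound rests on the floor, and the log2 difference went from 1.97 to 0.36 with a floor of 100. The p-values rest on it too, since the 8 arrays set to the floor have no spread.

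The 2 aspartate/glutamate carriers differed between lines by unlike amounts. SLC25A12 was low in SNU-601, at 108 to 200.0, and its 4 arrays there lay under all arrays of KATO-III (386 to 758) and SNU-216 (589 to 729). It was 4.2-fold lower than in SNU-216 (adjusted p = 2.2e-06) and 3.5-fold lower than in KATO-III (adjusted p = 7.32e-06). SLC25A13 was 1.46-fold and 1.65-fold lower in SNU-601 than in SNU-216 and KATO-III (adjusted p = 0.000199 and 3.38e-05), and the KATO-III value is the mean of fractions that differ. SLC25A22 was lowest in KATO-III, 3.04-fold under SNU-216 (adjusted p = 2.07e-08) and 2.14-fold under SNU-601 (adjusted p = 4.34e-07), again a mean of 2 unlike fractions.

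SLC25A29 was highest in SNU-216, at 509 to 610.1, 2.32-fold above KATO-III (adjusted p = 4.12e-06) and 3.1-fold above SNU-601 (adjusted p = 4.61e-07). SLC25A43 was lowest in SNU-216, at 899 to 1012, 1.6-fold under KATO-III (adjusted p = 1e-06) and 2.38-fold under SNU-601 (adjusted p = 1.21e-08). SLC25A23 was lowest in KATO-III, at 2873 to 3279, 1.93-fold under SNU-216 (adjusted p = 1.09e-08) and 2.29-fold under SNU-601 (adjusted p = 3.94e-09). Against these, SLC25A5 and SLC25A3 differed between any pair of lines by at most 1.11-fold and 1.15-fold.

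**Figure D5:**
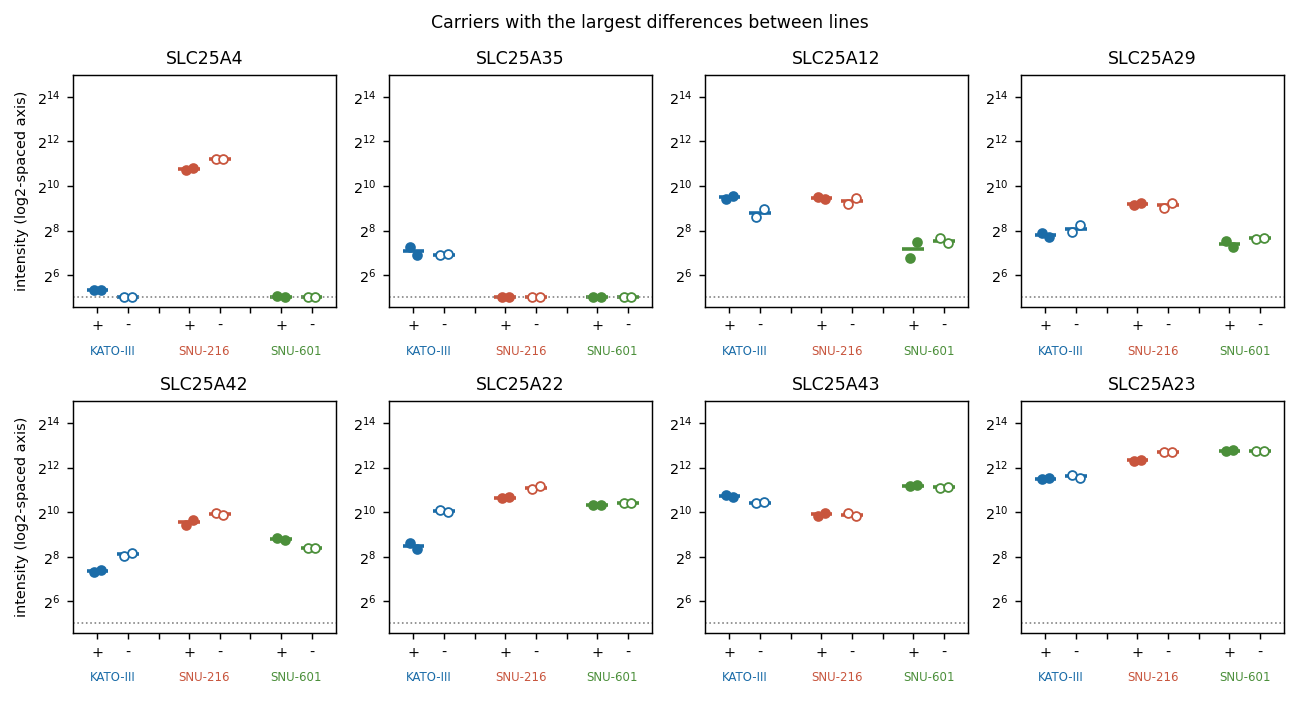
Intensity (vertical axis, spaced by log2, values under the floor drawn at it, dotted line) on each of the 12 arrays for 8 carriers with large differences between lines, by line and CD133 fraction (filled points CD133+, open points CD133-, bars the mean of 2 arrays). SLC25A4 and SLC25A35 are above the floor mainly in 1 line each, SLC25A12 is lowest in SNU-601, and SLC25A42, SLC25A22 and SLC25A23 are lowest in KATO-III.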

How the data were processed

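RNA of FACS-sorted CD133+ and CD133- cells was hybridised to Illumina HT-12 v3 BeadChips, 2 arrays for each of 6 populations. The authors deposited linear intensities with a row per gene symbol, quantile-normalized per the methods, and the submitters' processing notes name BeadStudio. 32.1% of the values are 0 or negative, which shows a background subtraction, but its method and the way probes were combined are not given in the sources used here. Array medians were 26.0 to 27.1, 16320 to 16474 genes lay above the floor per array, and no read depth applies, so that the number of arrays limits the precision.

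As floor served the absolute value of the table's 1st percentile. Intensities were floored, log2-transformed and fitted with limma 3.58.1 in R 4.3.3 (lmFit, eBayes with trend) for genes that exceeded the floor on 2 or more arrays. A mean per population (6 residual degrees of freedom) gave the contrasts within lines, between lines and the line by fraction F-test, and a model with the line as block gave the effect over lines. Benjamini-Hochberg adjustment ran over all tested genes at 0.05, and the fits were tested on simulated data. A fold against a floored group is a lower bound. Arrays set to the floor show no spread, so that p-values of carriers with such arrays understate the spread between arrays.

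Values are given in full for carriers called over the lines or alike in 3 lines, the 5 largest called differences per line, those called in opposite directions, the 4 largest per pair of lines, the ADP/ATP and phosphate carriers and those past the signal-to-noise thresholds, except for a carrier that is in the counts and is not reported here. SLC25A10, SLC25A11, SLC25A14, SLC25A16, SLC25A25, SLC25A26, SLC25A38, SLC25A39 and SLC25A44 fall outside this rule and were named after their values were seen. The members and gene lists were chosen with earlier results of these data known. Alternatives changed the floor, filter, scaling, trend and block, and left out each array. Promoter windows come from RefSeq (GRCh38.p14), and no genome coordinates are given for the array rows, whose probes are not named.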

Additional observations from a re-analysis of the deposited data

Results flagged for a closer look

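The log2 difference between the CD133 fractions differed between the 3 lines for 26 carriers by the moderated F-test of line by fraction (limma, adjusted p under 0.05). Of all tested genes, 44.4% passed the same test. The span from the smallest to the largest of the 3 lines' log2 differences was 1.65 for SLC25A13, 1.56 for SLC25A34, 1.48 for SLC25A22, 1.30 for SLC25A30, 1.29 for SLC25A20, 1.27 for SLC25A28, 1.16 for SLC25A42, 1.15 for SLC25A12 and 1.13 for SLC25A46. For SLC25A13 the KATO-III CD133+ arrays lay above all others, and for SLC25A20, SLC25A28 and SLC25A42 the direction itself turned between lines.

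It was 0.97 for SLC25A11, 0.81 for SLC25A37, 0.80 for SLC25A6, 0.80 for SLC25A16, 0.80 for SLC25A17, 0.75 for SLC25A4, 0.63 for SLC25A26 and 0.62 for SLC25A38. The span was smaller, 0.61 for SLC25A40, 0.61 for SLC25A15, 0.60 for SLC25A25, 0.52 for SLC25A24, 0.51 for SLC25A1, 0.49 for SLC25A10, 0.39 for SLC25A23 and 0.38 for SLC25A14. For SLC25A34, SLC25A30 and SLC25A4 some arrays lay under the floor of 32.7, so that the span depends on where the floor was set. The difference between lines was lost on leaving out at least 1 single array for SLC25A10, SLC25A12, SLC25A14, SLC25A17, SLC25A24, SLC25A26, SLC25A30 and SLC25A40.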

How the results depend on the processing

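Of 1828 alternatives for the 26 carriers that the naming rule gave, 1746 kept direction and call, 81 kept the direction without the call, 1 had no difference (SLC25A4 in KATO-III with a floor of 100) and 0 reversed. SLC25A10, SLC25A14 and SLC25A44, which lost calls in many settings, are not in this tally. Nor are settings in which a carrier was no longer tested, such as SLC25A30 and SLC25A34 with a floor of 100. Leaving out an array outside a comparison leaves its difference unchanged, so that only the call could be lost. The tally of kept directions is thus in part fixed by the settings. Over the lines 0 carriers were called, against 1 (SLC25A22) with an offset of 100 in place of the floor or with only genes above the floor on all 12 arrays, and 0 to 1 when single arrays were left out. In the SNU-216 fractions the count was 9 to 14 when single arrays were left out, with 9 without SNU-216 CD133+ replicate 1. Past the signal-to-noise thresholds was 1 carrier on linear intensities, 0 on the log2 scale and 1 to 2 with single arrays left out, with 2 without SNU-601 CD133+ replicate 2. Other counts stayed within 1.5 times, at 16 to 22 in KATO-III, 6 to 9 in SNU-601 and 22 to 24 for line by fraction with single arrays left out.

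With the replicate number as a block the counts were 20, 14 and 9 in KATO-III, SNU-216 and SNU-601, 0 over the lines and 26 for line by fraction, and 23, 26 and 26 between lines. The block cost the KATO-III call of SLC25A4 (adjusted p = 0.0596). The numbers did not pair the samples: deviations from the population means correlated between -0.01 and 0.03 over 15 pairs of populations, 0 of them over 0.1. With the arrays of a population averaged first, or population as a random block, 0 carriers were called over the lines, where 0 and 1 of all 20147 genes were.

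Calls that rest on the floor are those of SLC25A4 between fractions, in KATO-III and in SNU-216, and those of SLC25A30, SLC25A31, SLC25A34 and SLC25A35. For SLC25A4 in SNU-216 the difference itself did not depend on the floor, but its adjusted p did. Small differences (SLC25A5, SLC25A10, SLC25A14, SLC25A15, SLC25A28, SLC25A44) were lost under several settings. Centring moved an array median by at most 0.046 on the log2 scale. With 2 arrays a population, a missed threshold does not show equal levels.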

Other observations

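Carriers reach the inner membrane through TOM receptors, the small TIM chaperones of the intermembrane space and the TIM22 complex. Of 15 listed genes of this machinery, all tested, 2 were higher and 1 lower in KATO-III CD133+ cells, 5 higher and 4 lower in SNU-216, and 1 higher in SNU-601, against 39.3%, 28.6% and 16.4% of all tested genes called in either direction, with median log2 differences of 0.07, 0.22 and -0.04. The largest were the chaperones TIMM9, with 4294 and 4501 against 1994 and 1839 (2.3-fold higher, adjusted p = 6.37e-06, limma), and TIMM8A (1.75-fold higher, adjusted p = 0.00285) in KATO-III, and the TIM22 complex genes C19ORF52 (now TIMM29, 1.53-fold lower, adjusted p = 0.000746) and FXC1 (now TIMM10B, 1.51-fold lower, adjusted p = 0.00162) in SNU-216. TIMM10 was the gene called in SNU-601 (1.19-fold higher, adjusted p = 0.0314).

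Of 14 other channels and transporters of the mitochondrial membranes, 13 were tested: 5 were higher and 1 lower in KATO-III CD133+ cells, 2 higher and 4 lower in SNU-216, and 2 higher and 2 lower in SNU-601, 6, 6 and 4 genes against the same 39.3%, 28.6% and 16.4%, with median log2 differences of 0.13, 0.11 and 0.06. CCDC109B (MCUB, a subunit of the calcium uniporter) and SFXN1 (a serine carrier) turned between lines: their log2 differences were 1.02 ± 0.11 and 0.86 ± 0.07 in KATO-III, -0.39 ± 0.11 and -0.53 ± 0.07 in SNU-216, and 0.39 ± 0.11 and 0.43 ± 0.07 in SNU-601, all called (largest adjusted p = 0.0374). CCDC109A (MCU, the pore of the uniporter) was 1.33-fold lower in SNU-601 CD133+ cells (adjusted p = 0.00552).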
